A study of Homo sapiens with 3 samples.

Results

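The G protein-coupled receptor kinases (GRKs) and the beta-arrestins were measured in untreated HEK293T cells. The set was made of 9 genes, GRK1 to GRK7, ARRB1 and ARRB2, chosen by symbol from the 35880 genes of a kallisto transcript table, and each gene's level was the sum over its transcripts. HEK293T is an immortal line derived from human embryonic kidney that also carries the SV40 large T antigen. There was 1 group of 3 libraries, labelled biological replicates 1, 2 and 3, with no treatment, no second genotype and no control. Cells grew in high-glucose DMEM with 10% fetal bovine serum to 70% confluence, and directional libraries were made after oligo-dT capture of Trizol RNA. Nothing in the labels said whether the replicates were separate cultures, and each p-value reflects how far the 3 libraries scatter, part of which may be technical. The cells are a population, so fewer cells that use a gene and less RNA per cell cannot be told apart.

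GRKs end the signal of G protein-coupled receptors, the large family of cell-surface receptors for hormones, transmitters, chemokines and light. An activated receptor is phosphorylated on its inner loops and tail by a GRK, and an arrestin then binds the phosphorylated receptor, keeps the G protein away, and hands the receptor to clathrin-coated pits. GRK1 and GRK7 belong to photoreceptors, GRK2 and GRK3 are brought to the membrane by free G beta-gamma subunits, and GRK4, GRK5 and GRK6 sit at the membrane by lipid or charged anchors. ARRB1 and ARRB2 encode the beta-arrestins, which also scaffold MAP kinases. HEK293 cells are a common host for assays of transfected receptors.

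Levels are in TPM, kallisto's per-length share of a library's transcripts scaled to the same total in every library, which allows genes to be compared. The only count column deposited named no library, summed to 33184885 estimated counts and equalled replicate 1 once rescaled (largest relative difference 1.08e-05). The 3 libraries correlated at r = 0.970 to 0.976 across genes of at least 1 TPM (Pearson, log2 TPM; a description, since genes are not independent replicates). All 7 markers listed for the HEK293 line were above 1 TPM, from PAX2 at 1.57 ± 0.0836 TPM to VIM at 401 ± 8.62 TPM (SD, n = 3). Of 8 blood and endothelial markers, 5 were below 1 TPM and CD3E and HBB were listed at 0.

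Of the 9 genes, 7 were above 1 TPM and GRK1 and GRK7 were below it. Each gene's log2(TPM + 0.01) was set against 1 TPM with limma's moderated one-sample test, at an adjusted p under 0.05 over 21990 genes above 0 in at least 1 library. Of all genes so tested, 58.5% were above 1 TPM and 33.9% below, and of the 17248 protein-coding genes among them 70.7% and 23.7%. The members' count of 7 above is thus near the background of coding genes. Their median level was 12.1 TPM, against 6.24 over all protein-coding genes and 0.0994 over all genes in the table. The 7 GRK genes summed to 183.3 ± 2.94 TPM and the 2 beta-arrestins to 110.2 ± 3.34 TPM (SD, n = 3), a ratio of 1.66 ± 0.0596.

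**Figure D1:**
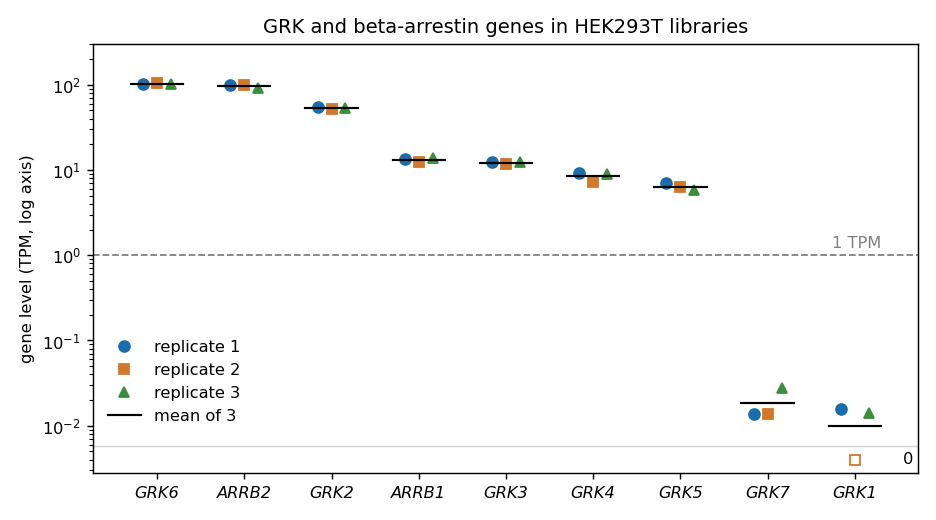
Level of each GRK and beta-arrestin gene (vertical axis, TPM, log scale) in replicates 1, 2 and 3 (points) with the mean of 3 (bar). GRK6 and ARRB2 lie near 100 TPM, GRK2 near 53, and ARRB1, GRK3, GRK4 and GRK5 between 5.85 and 13.8, while GRK7 and GRK1 lie below 0.03; the open square is GRK1 in replicate 2, listed at 0.

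GRK2 (chromosome 11, 67266410 to 67286556, plus strand; all coordinates are hg38, from GENCODE 29) encodes the widely expressed kinase that phosphorylates beta-adrenergic receptors. It measured 54.8, 51.6 and 53.9 TPM in replicates 1, 2 and 3, or 53.4 ± 1.69 TPM (SD, n = 3). The 3 values lay within a narrow band, 5.73 ± 0.0249 (SE) above 1 TPM on the log2 scale (adjusted p = 6.52e-09). Its close relative GRK3 (chromosome 22, 25564849 to 25729294, plus strand), the other G beta-gamma-binding kinase, measured 12.3, 11.6 and 12.5 TPM, or 12.1 ± 0.487. GRK2 was higher in every library, by 2.14, 2.14 and 2.10 on the log2(TPM + 0.1) scale, a fold of 4.37 (limma on the within-library difference, adjusted p = 1.52e-07; 4.91e-06 with both genes' own variances). Together these kinases made 35.8 ± 0.615% of the GRK TPM. Their coding sequences matched at 72.4% of aligned bases and shared no 31-base word, the length of word by which kallisto usually assigns reads.

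GRK6 (chromosome 5, 177403204 to 177442901, plus strand), a kinase known for its work on chemokine receptors, was the highest GRK. It measured 102.6, 103.4 and 102.5 TPM, or 102.8 ± 0.470 (SD, n = 3), and held 56.1 ± 1.14% of the GRK TPM. GRK6 was above GRK2 in every library, by 0.90, 1.00 and 0.93 on the log2 scale, a fold of 1.92 (adjusted p = 1.76e-06; 5.12e-06 with both genes' own variances). GRK5 (chromosome 10, 119207589 to 119459742, plus strand), which shares 73.5% of aligned coding bases with GRK6, measured 6.98, 6.34 and 5.85 TPM, or 6.39 ± 0.566. GRK6 exceeded it by 3.86, 4.01 and 4.11 on the log2 scale, a fold of 15.9 (adjusted p = 5.41e-07; 1.61e-06 with both genes' own variances).

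GRK4 (chromosome 4, 2963608 to 3040747, plus strand), a kinase studied in testis and in kidney dopamine signalling, measured 9.20, 7.30 and 9.02 TPM, or 8.51 ± 1.05 (SD, n = 3). Replicate 2 was the lowest of its 3 values, and none overlapped those of GRK5. GRK4, GRK5 and GRK6 together made 64.2 ± 0.622% of the GRK TPM, most of it from GRK6. GRK4 held 4.64 ± 0.507% and GRK5 3.48 ± 0.286%. All of GRK2 to GRK6 were above 1 TPM, with adjusted p-values from 1.16e-09 for GRK6 to 4.44e-06 for GRK4.

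The visual kinases stood far below. GRK7 (chromosome 3, 141778148 to 141818490, plus strand), the cone opsin kinase, measured 0.0139, 0.0137 and 0.0276 TPM. GRK1 (chromosome 13, 113667155 to 113737735, plus strand), the kinase of rod photoreceptors, measured 0.0159, 0 and 0.0143 TPM. In replicate 1, the library that the estimated counts equal, each of these levels was 1 estimated count. Both were called below 1 TPM (log2 difference -5.19, adjusted p = 0.000861 for GRK7; -5.78, adjusted p = 0.00115 for GRK1), and their order was undecided (adjusted p = 0.694). Their levels are at the scale of single reads, so use in a small part of the cells would not be detectable at this depth. GRK1 had its TPM on 2 transcripts that have no match in GENCODE 29, while GRK1-201, which carries the full coding sequence there, was listed at 0 in every library.

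Photoreceptor markers were low with them. Of 18 such markers, 11 were below 1 TPM, 2 were undecided and GNAT1, GUCA1A, OPN1LW and PDE6H were listed at 0. ROM1, a membrane protein of photoreceptor discs, was above 1 TPM (1.49, 1.89 and 1.94 TPM). The summed level of the 18 markers ran from 5.76 to 5.80 TPM.

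ARRB2 (chromosome 17, 4710489 to 4721499, plus strand) encodes beta-arrestin 2. It measured 99.0, 99.6 and 92.6 TPM, or 97.1 ± 3.90 (SD, n = 3). ARRB1 (chromosome 11, 75264182 to 75351705, minus strand), which encodes beta-arrestin 1, measured 13.3, 12.3 and 13.8 TPM, or 13.1 ± 0.757. ARRB2 was the higher in every library, by 2.88, 3.01 and 2.74 on the log2 scale, a fold of 7.35 (adjusted p = 1.97e-08; 2.42e-06 with both genes' own variances), and held 88.1 ± 0.980% of the beta-arrestin TPM. Their coding sequences matched at 75.8% of aligned bases and shared no 31-base word, so the 2 genes can be told apart by such words.

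Placed in order, the levels ran GRK6, ARRB2, GRK2, ARRB1, GRK3, GRK4, GRK5, GRK7 and GRK1, and 6 of the 8 neighbouring pairs differed. GRK6 lay above ARRB2 by 0.05, 0.05 and 0.15 on the log2 scale, a fold of 1.06 (adjusted p = 0.0264; 0.048 with both genes' own variances). That small step did not pass without the mean-variance trend (0.127), without replicate 2 (0.0756) or without replicate 3 (0.0691). ARRB2 lay above GRK2 by a fold of 1.81 (adjusted p = 8.63e-07; 1.95e-05 with both genes' own variances), and GRK2 above ARRB1 by 4.05 (1.52e-07; 5.7e-06). The largest step, from GRK5 down to GRK7, was 5.77 on the log2(TPM + 0.1) scale (adjusted p = 1.32e-05 with both genes' own variances). GRK7 lies below the pseudocount, so this size depends on it: 8.43 with 0.001 and 2.86 with 1.

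ARRB1 and GRK3 did not separate: the difference was 0.11, 0.08 and 0.14 on the log2 scale, and its mean of 0.11 ± 0.07 (SE) missed the threshold (adjusted p = 0.139), though near full-length sums of this pair, described later, differed. GRK3 lay above GRK4 by 0.42, 0.66 and 0.47, a fold of 1.43 (adjusted p = 0.000423; 0.00538 with both genes' own variances). GRK4 lay above GRK5 by 0.39, 0.20 and 0.62, a fold of 1.32 (adjusted p = 0.0198). Without replicate 1 the difference was 0.41 (adjusted p = 0.127) and without replicate 3 it was 0.30 (0.325), and the call was lost in both. Against the same references, of the 21989 other genes above 0 in at least 1 library, 92.4% were lower than GRK6, 91.8% lower than ARRB2, 84.6% than GRK2, 60.8% than ARRB1, 59.8% than GRK3, 54.3% than GRK4, 51.7% than GRK5 and 0% than GRK7. With both genes' own variances the shares were 92.4%, 91.8%, 84.4%, 60.5%, 59.5%, 54.2%, 51.3% and 0% in that order. GRK7 lies below the pseudocount of 0.1 TPM, so hardly any step down from it was possible, and its 0% carries no information. By mean TPM, 41.7% of all 35880 genes, those at 0 included, were lower than GRK7.

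**Figure D2:**
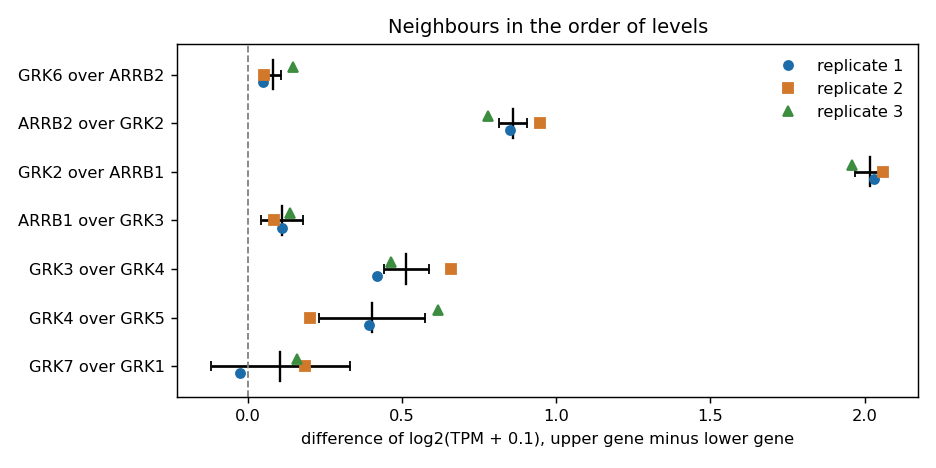
Within-library difference of log2(TPM + 0.1) between neighbours in the order of levels (horizontal axis, upper gene minus lower gene), in replicates 1, 2 and 3 (points), with the mean (tick) and its SE (bar); the step from GRK5 to GRK7, 5.77, is left off. The steps ARRB2 over GRK2 and GRK2 over ARRB1 lie far from 0, while GRK7 over GRK1 has points on both sides of it.

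A gene's TPM sums transcripts that do not all encode the full protein. The 9 genes had 79 transcripts in the table, of which 25 were above 1 TPM, 9 below, 30 undecided and 15 listed at 0. Only the 64 of them above 0 in at least 1 library were tested. Over all 122057 transcripts tested, which likewise leave out those at 0, 30.8% were above and 25.1% below. The count below fell to 4, 3 or 5 without replicate 1, 2 or 3, and rose to 20 with a pseudocount of 1. The transcripts described next are, for each gene, the most abundant and any other with at least 10% of the gene's TPM. How kallisto divides reads among transcripts of the same gene is an estimate, so the number of 31-base words found in no other transcript of the gene (its own words) is given where it is small.

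GRK6 was spread over many transcripts, which differ at the end of the coding sequence. GRK6 is known as splice forms A, B and C with different tails, and the A tail carries palmitoylated cysteines. GRK6-201 (576 codons, the A form) held 31.5% of GRK6 TPM, GRK6-211 (589 codons, the B form) 17.8% and GRK6-202 (560 codons, the C form) 12.4%. GRK6-206 (475 codons), which runs past the end of an earlier exon to a stop codon, held 19.0%. The 4 endings are printed to show the point where they part, with the 24 bases before it in lower case (the same in the first 3, an earlier exon in GRK6-206) and the bases after it, to the stop codon, in capitals.
GRK6-201, chr5:177441737-177441790 (capitals): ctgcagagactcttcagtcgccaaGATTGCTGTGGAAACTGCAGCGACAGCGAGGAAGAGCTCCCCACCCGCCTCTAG
GRK6-211, chr5:177441735-177441827 (capitals): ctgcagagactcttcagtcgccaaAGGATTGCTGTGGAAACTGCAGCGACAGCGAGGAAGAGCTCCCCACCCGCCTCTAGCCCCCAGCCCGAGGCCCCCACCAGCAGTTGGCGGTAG
GRK6-202, chr5:177441245-177441250 (capitals): ctgcagagactcttcagtcgccaaAGGTGA
GRK6-206, chr5:177436531-177436554 (capitals): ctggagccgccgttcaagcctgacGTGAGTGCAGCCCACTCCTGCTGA

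The A and B endings use the same last exon from acceptor sites 2 bases apart, which puts the B form in another reading frame. GRK6-201 measured 31.7, 31.1 and 34.4 TPM, GRK6-211 18.3, 20.05 and 16.5, and GRK6-202 15.6, 10.3 and 12.4. GRK6-201 was the highest of these 3 in every library, with 51.1 ± 3.04% of their sum, against 28.8 ± 3.42% for GRK6-211 and 20.04 ± 3.52% for GRK6-202 (SD, n = 3). Few words set them apart: 67 for GRK6-201, 29 for GRK6-211, 106 for GRK6-202 and 155 for GRK6-206. GRK6-207, a fragment with 88 codons that GENCODE labels as subject to nonsense-mediated decay, held another 11.9% and had 27 words of its own.

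ARRB1 had 2 transcripts above the naming share. ARRB1-202 (418 codons) contains a 24-base exon that ARRB1-201 (410 codons) skips, which is the known difference between the long and short forms of beta-arrestin 1. The junction is printed for both, with the extra exon in capitals (chr11:75271701-75271724, minus strand).
ARRB1-202: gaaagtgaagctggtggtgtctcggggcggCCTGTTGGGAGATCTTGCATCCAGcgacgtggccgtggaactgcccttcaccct
ARRB1-201: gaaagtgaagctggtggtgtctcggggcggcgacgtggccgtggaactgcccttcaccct

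ARRB1-201 measured 7.61, 7.18 and 7.25 TPM and ARRB1-202 4.13, 4.41 and 4.36 TPM. The short form was the higher in every library, and the long form made 36.9 ± 1.55% of the pair (SD, n = 3). ARRB1-202 had 1446 words found in no other ARRB1 transcript and ARRB1-201 had 0. ARRB1-202 is 3336 bases long and ARRB1-201 1895, so most of those words lie outside the 24-base exon. The split between the forms thus rests largely on sequence other than that exon, and on how the model divides shared reads.

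In ARRB2 no single transcript held most of the TPM, and the near full-length forms, summed later, together held 43.6%. ARRB2-216 (217 codons) measured 26.1, 25.2 and 22.0 TPM and held 25.2% of ARRB2 TPM, beside ARRB2-201 (409 codons), which measured 23.99, 24.1 and 22.8 TPM and held 24.3%. ARRB2-216 was the higher in replicates 1 and 2 and the lower in replicate 3. It lacks the 31-base exon shown in capitals for ARRB2-201 (chr17:4715013-4715043), and its annotated coding sequence is the shorter one. None of the 1318 words of ARRB2-216 was its own (ARRB2-201 had 107), so its level rests on how the model divides shared reads.
ARRB2-201: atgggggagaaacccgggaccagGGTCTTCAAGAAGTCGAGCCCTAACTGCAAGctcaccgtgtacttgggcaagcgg

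ARRB2-202 (406 codons) measured 13.4, 14.2 and 13.4 TPM, 14.1% of the gene, had 65 words of its own, and differs from ARRB2-201 at 2 places. It skips a 45-base exon (first sequence, chr17:4716147-4716191) and adds 36 bases further on (capitals of the second, chr17:4720550-4720585).
Exon absent from ARRB2-202: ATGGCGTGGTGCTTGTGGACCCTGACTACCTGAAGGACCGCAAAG
ARRB2-202: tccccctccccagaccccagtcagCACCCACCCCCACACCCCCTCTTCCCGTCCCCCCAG

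GRK2 and GRK5 were simpler. GRK2-201 (689 codons) measured 41.3, 42.0 and 43.1 TPM and held 78.9 ± 3.23% of GRK2, with 72 of 3436 words its own. GRK5-202 (590 codons) measured 6.85, 6.20 and 5.75 TPM and held 98.1 ± 0.306% of GRK5. GRK7 has the transcript GRK7-201 alone.

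GRK3 was divided between 2 transcripts. GRK3-203 (387 codons) measured 6.98, 6.06 and 6.67 TPM, and GRK3-201, the full-length form of 688 codons, 5.35, 5.52 and 5.26 TPM. The shorter coding form was the higher in every library, with 54.1% of the gene against 44.4%, on 207 words of its own. Its coding sequence ends 4 bases into an extra exon, at the stop codon that closes the printed run (capitals, chr22:25702842-25702845).
GRK3-203: catgcttttcaaacttctgagaggATGA

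Among the 7 genes above 1 TPM, GRK4 had the smallest share in long coding transcripts. GRK4-204, of 2 exons and 84 codons, measured 4.79, 4.65 and 4.65 TPM and held 55.8 ± 6.87% of GRK4 TPM. GRK4-202 (500 codons) measured 1.14, 0.719 and 0.902 TPM, 10.8% of the gene, and GRK4-208, a retained intron, 10.1%. GRK4-204 was above 1 TPM (adjusted p = 7.29e-05) and GRK4-202 was undecided (adjusted p = 0.576). Of the 2038 words of GRK4-202, 26 were its own. The first bases after exon 1 are printed for these and for the full-length GRK4-203, which was added after its values were seen (0.506, 0 and 0.383 TPM, with no word of its own); the shared end of exon 1 is in lower case and the different next exons are in capitals.
GRK4-204, chr4:2965243-2965278 (capitals): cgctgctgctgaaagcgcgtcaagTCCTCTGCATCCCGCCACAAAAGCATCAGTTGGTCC
GRK4-203, chr4:2984513-2984548 (capitals): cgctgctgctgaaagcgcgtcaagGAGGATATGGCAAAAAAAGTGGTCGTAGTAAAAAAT
GRK4-202, chr4:2988727-2988762 (capitals): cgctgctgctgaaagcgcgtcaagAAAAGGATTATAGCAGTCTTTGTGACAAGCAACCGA

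The 4 long GRK4 coding transcripts together measured 1.97, 1.47 and 1.74 TPM, and GRK4-204 was 2.76 ± 0.374 times their sum (SD, n = 3). GRK4-204 exceeded that sum in every library. Of its 2106 words, 1647 occurred in no other GRK4 transcript, and 214 (10.2%) also occurred in transcripts of other genes, whose part in its level was not tested.

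**Figure D3:**
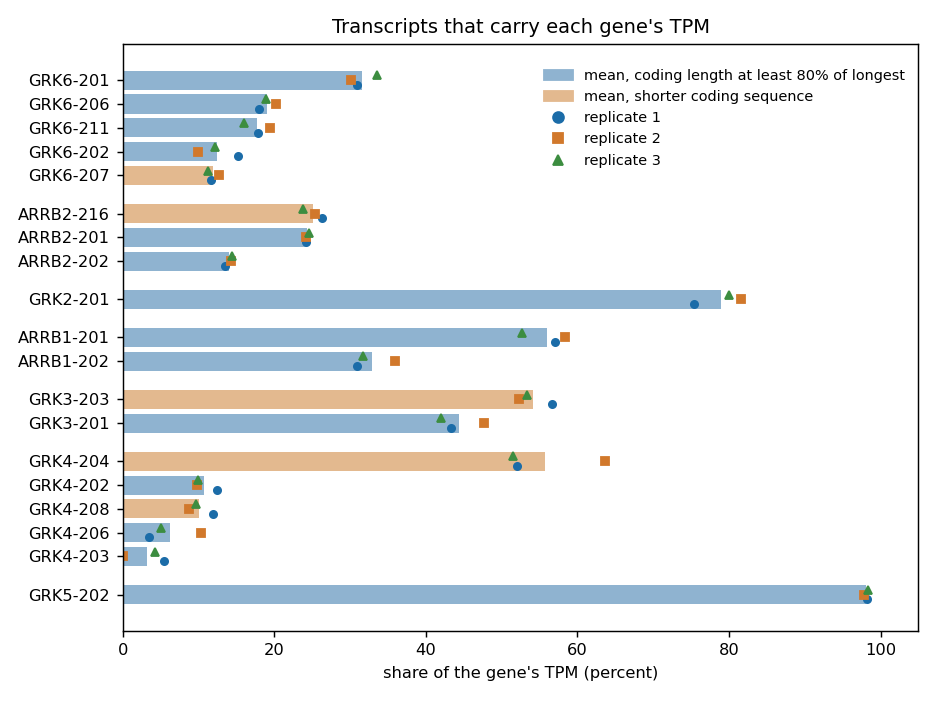
Share of each gene's TPM (horizontal axis, percent) held by the named transcripts, as the mean of 3 libraries (bars) and in each replicate (points); bar colour shows whether the coding length is at least 80% of the longest in the gene. GRK5-202 and GRK2-201 hold most of their genes, while GRK4-204 and GRK3-203, with shorter coding sequence, lead theirs in every library, and ARRB2-216 and ARRB2-201 change places in replicate 3; GRK4-206 and GRK4-203 were added after their values were seen.

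Levels were then summed over near full-length transcripts only, those with at least 80% of the gene's longest coding length in GENCODE 29, a step added after the data were seen. GRK6-206, at 80.6% of the longest, was just inside that limit and ARRB2-218, at 76.7%, just outside. GRK6 kept 84.0 ± 1.15 TPM (81.7% of the gene), GRK2 42.1 ± 0.883 (78.9%), ARRB1 11.6 ± 0.0780 (88.9%) and GRK5 6.27 ± 0.553 (98.1%). ARRB2 came to 42.3 ± 0.797 TPM (43.6%), GRK3 to 5.38 ± 0.135 (44.4%) and GRK4 to 1.73 ± 0.251 (20.3%) (SD, n = 3). Over 12592 protein-coding genes of at least 1 TPM the median share was 67.6% (quartiles 41.3% and 89.0%), and 11.9% of them had a lower share than GRK4, 26.8% than ARRB2 and 27.4% than GRK3.

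On these sums the order of the middle genes changed. ARRB2 (42.2, 43.2 and 41.6 TPM) and GRK2 (41.3, 42.0 and 43.1 TPM) overlapped, with a difference of 0.01 ± 0.03 (SE) on the log2 scale (adjusted p = 0.827), and GRK6 stood above ARRB2 by a fold of 1.98 (adjusted p = 1.06e-07). This GRK6 sum includes GRK6-206 (19.6 ± 1.21 TPM), which lacks the A, B and C tails. The A, B and C forms alone summed to 63.5 ± 2.09 TPM (SD, n = 3), which was not tested against ARRB2. GRK4 went below GRK5, with a log2 difference of -1.81 in place of 0.40, and below GRK3 by a fold of 3.02 (adjusted p = 7.41e-06). ARRB1 lay above GRK5 by a fold of 1.85 (adjusted p = 3.67e-05), and above GRK3 by 1.10 on the log2 scale (adjusted p = 4.67e-06). GRK5 and GRK3 were undecided (adjusted p = 0.0896), though the test with both genes' own variances passed (0.0399). The ratio of ARRB2 to ARRB1 was 3.63 ± 0.0795 here against 7.42 ± 0.688 over all transcripts, and that of GRK2 to GRK3 7.84 ± 0.309 against 4.40 ± 0.0803. Of the 16289 other genes with a near full-length sum above 0, 92.4% were lower than GRK6, 84.2% lower than ARRB2 and the same share lower than GRK2, 59.2% than ARRB1, 47.2% than GRK5, 45.7% than GRK3 and 32.2% than GRK4.

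**Figure D4:**
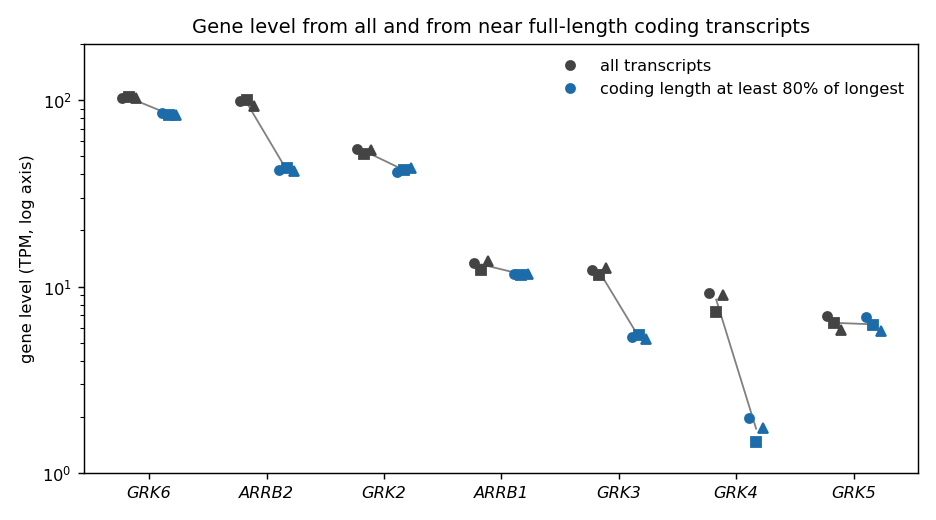
Level of the 7 expressed genes (vertical axis, TPM, log scale) from all transcripts (dark) and from near full-length coding transcripts (blue), with replicates 1, 2 and 3 as circles, squares and triangles and a line joining the means. GRK4 drops from 8.51 to 1.73 TPM and passes below GRK5, ARRB2 drops from 97.1 to 42.3 TPM to meet GRK2, and GRK5 and ARRB1 end at 6.27 and 11.6 TPM.

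Little of the members' sequence occurs in other genes. The share of a gene's 31-base words found on the same strand of another gene's transcripts was 0% for GRK1, 0.144% for GRK5 and 0.937% for GRK2, and from 2.05% to 5.22% for ARRB2, GRK3, ARRB1, GRK4 and GRK6. On the opposite strand, which matters if reads were counted without strand, the shares were 8.67% for GRK6, 5.18% for ARRB1, 4.22% for GRK4 and at most 2.54% for the others. All 231 words that GRK6 shared on the same strand were found in its pseudogene GRK6P1, which measured 0.0558 TPM. GRK7 shared 22.7%, mostly with AC112504.2, a gene model that overlaps it on the same strand; 2482 of its 3209 words occurred in no other gene's transcripts on that strand. The span of GRK6 also overlaps F12 on the opposite strand (13.9 TPM). The antisense gene PRR7-AS1 (chr5:177438503-177447699), which has no level under that symbol, spans the A, B and C endings of GRK6. No source used here gives the strand setting of the quantification.

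Most genes that act with GRKs and arrestins were above 1 TPM, as were 70.7% of the protein-coding genes tested and 35.8% of all 35880 genes. All 12 genes of clathrin, its adaptor AP2 and dynamin, which take arrestin-bound receptors into the cell, were above it. Their median was 111 TPM, the highest was the adaptor subunit AP2S1 (259, 261 and 270 TPM) and the lowest the dynamin DNM3 (3.02, 3.06 and 3.05 TPM). Of 10 genes that sort internalised receptors, 9 were above 1 TPM, led by the recycling GTPase RAB11A (233, 223 and 250 TPM). GPRASP1, a sorting protein that sends receptors to lysosomes, was undecided (0.883, 0.702 and 0.910 TPM, adjusted p = 0.175).

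Of 9 regulators and partners of GRKs, 8 were above 1 TPM. CALM2, a calmodulin gene, was the highest at 413, 416 and 403 TPM. The exception, RCVRN, encodes recoverin, the photoreceptor calcium sensor that restrains GRK1, and was below 1 TPM at 0.0850, 0.0830 and 0 TPM. All 9 ubiquitin ligases and deubiquitinases of arrestins and receptors were above 1 TPM, from TRAF6 at 9.01 ± 0.241 TPM to USP33 at 54.1 ± 1.04 TPM (SD, n = 3).

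All 12 kinases scaffolded by arrestins were above 1 TPM. They ran from MAPK10, a JNK kinase, at 5.03 ± 0.372 TPM to MAP2K2, an ERK-activating kinase, at 156.7 ± 0.612 TPM. The 6 second-messenger kinases that phosphorylate receptors without regard to agonist binding were also all above 1 TPM, from PRKCB, a protein kinase C, at 1.41 ± 0.251 TPM to PRKACA, the catalytic subunit of protein kinase A, at 64.0 ± 3.14 TPM. The PRKCB call was near the threshold (adjusted p = 0.0329), and 5 of the 6 were above without replicate 2 or without replicate 3.

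The other arrestins divided. Of 8 visual and alpha-arrestins, 5 were above 1 TPM, of which ARRDC1, an alpha-arrestin that recruits ubiquitin ligases, was the highest (30.4, 30.2 and 28.9 TPM). The visual arrestins SAG (0.212, 0.257 and 0.336 TPM) and ARR3 (0, 0.0383 and 0 TPM) were below 1 TPM, as was ARRDC5 (0, 0.0291 and 0 TPM).

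The receptors themselves were low against protein-coding genes. Of 15 receptors known as GRK substrates, 7 were above 1 TPM, 6 were below and AVPR2 and DRD1 were listed at 0. The 7 are 46.7% of the list, against 70.7% of the protein-coding genes tested and 35.8% of all 35880 genes. The list's median was 0.564 TPM, against 12.1 for the 9 GRK and beta-arrestin genes. It was 6.24 over all protein-coding genes and 0.0994 over all genes in the table. SMO, the Hedgehog pathway receptor, was the highest (34.9, 35.5 and 35.1 TPM). Without any 1 replicate 6 were above, and at 2 TPM in place of 1, 4 of the 15 were.

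**Figure D5:**
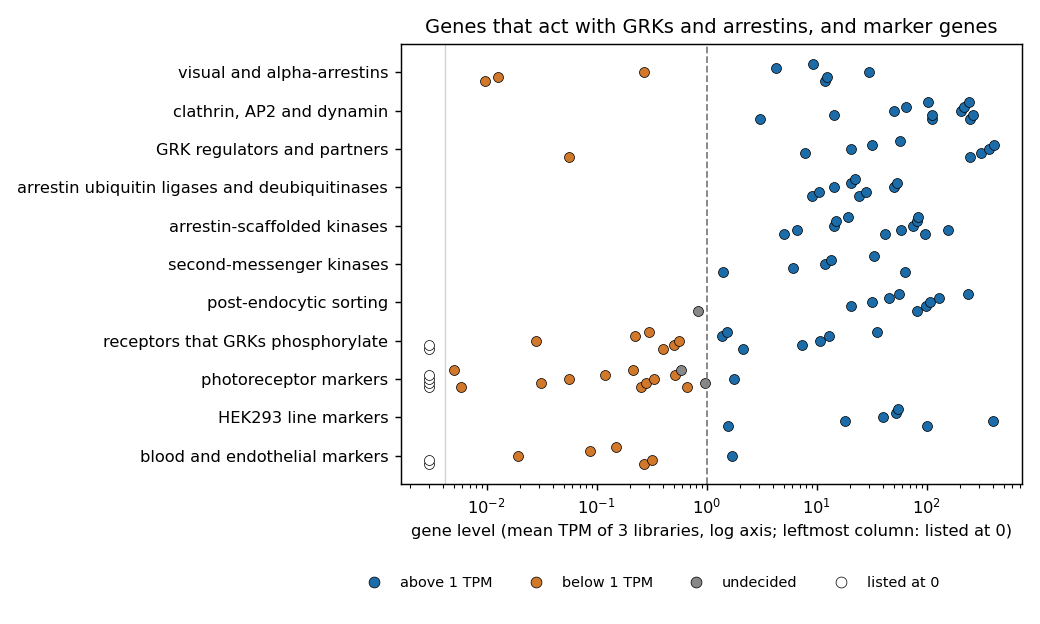
Mean TPM over 3 libraries (horizontal axis, log scale) of each gene in 8 lists of genes that act with GRKs and arrestins and 3 lists of markers, coloured by the call against 1 TPM (dashed line), with genes listed at 0 at the left edge. Clathrin, ubiquitin and kinase lists lie wholly to the right of the line, receptors lie on both sides of it, and photoreceptor and blood markers lie mostly to the left.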

How the data were processed

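Transcripts were quantified with kallisto on hg38, per the submitters' processing notes; no source used here gives its version, options, strand setting or transcript release. Deposited values were TPM per library, scaled by the authors within each library, an estimated count that named no library and was used only to describe depth, and transcript lengths, per the file headers. TPM carries no depth of its own, and depths of replicates 2 and 3 were not estimated here. TPM was summed by gene symbol. The authors' mean TPM was not tested.

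Levels were tested with limma 3.58.1 (trend; log2(TPM + 0.01) against 1 TPM; Benjamini-Hochberg over all genes above 0), and order with limma on within-library differences of log2(TPM + 0.1) of every gene from a reference member. Such differences share the reference's spread, so that test can give p-values that are too small; a test from both genes' own moderated variances was added after the data were seen. Fold changes on these scales are understated for low genes. On simulated data for 35880 genes, the level test called 49 of 50 genes set to 0.5 TPM. It called 50 of 50 set to 0.25, 2 or 4 TPM, and left 192 of 200 set to 1 TPM undecided. The order test, run against GRK2, called 50 of 50 at each fold (0.25, 0.5, 2, 4) and left 200 of 200 equal genes undecided. The simulated scatter was counting noise and a small replicate spread, with no division of reads among transcripts. Smaller folds were not simulated, so the result does not bear on small steps such as GRK6 over ARRB2 (1.06) and GRK4 over GRK5 (1.32). Transcripts were matched by identifier to GENCODE 29 (90.1% of 185299, and 76 of 79 members), which may not be the authors' release; sequences come from it. Alternatives were other pseudocounts, filters and levels, TMM (edgeR 4.0.16), rescaling without mitochondrially encoded genes, no trend and leaving out each replicate. The members and the 11 lists were chosen with earlier results of these data known. All 9 members are named, with each gene's top transcript and those of at least 10% of its TPM, and the highest, lowest and some 0 members of lists; others are said to be chosen later. Some list genes are not reported here.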

Additional observations from a re-analysis of the deposited data

How the results depend on the processing

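No paired analysis was possible because there is 1 group. The 7 members above 1 TPM stayed 7 under every alternative run. The count below 1 TPM, 2, became 0 with a mean TPM of at least 0.1, which removes both genes from the test, and 1 with near full-length transcripts, where GRK1 is at 0. Transcripts of members below 1 TPM, 9, became 20 with a pseudocount of 1 and 3 to 5 without 1 replicate. Against 0.5 TPM, 2 photoreceptor markers were above in place of 1, and against 2 TPM 0 were, with 0 blood or endothelial markers in place of 1 and 4 receptors in place of 7. GRK4 over GRK5 reversed to -1.81 with near full-length transcripts. Neighbouring pairs that differed, in either direction, numbered 4 to 6 over the alternatives, against 6. The same count can hold different pairs. With near full-length transcripts the 6 included the reversed GRK4 and GRK5 and gained ARRB1 over GRK3, while ARRB2 over GRK2 was undecided. Rescaling without mitochondrially encoded genes moved all log2 levels by a median of 0.0988 and changed no call of a member. Depth limits GRK1 and GRK7 most, at about 1 estimated count.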

Other observations

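The start sites of the members differed in CG content. In RefSeq's promoter table (GRCh38.p14), 7 of the 9 genes had an entry, and CG pairs were counted in the 250 bases before the start. The median over 35116 promoters was 11 (quartiles 3 and 23). GRK2 had 43, GRK4 36, GRK5 35, ARRB2 31 and GRK6 17, while GRK1 had 7 and GRK7 2. As many CG pairs or more were found in 1.02% of promoters for GRK2, 39.0% for GRK6, 58.9% for GRK1 and 85.3% for GRK7. The window for GRK7 ends 14740 bases before the gene start in GENCODE 29, and that for GRK6 lies inside the gene as drawn there. The order of these counts is not the order of levels: GRK6, the highest gene, had fewer than GRK4 and GRK5. No test was made.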
